A study of Mus musculus with 2 samples.

Results

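The genes described here are 39 enzymes of amino acid breakdown and of the methionine cycle, chosen by name from these pathways and read from every probe that carries their symbol on an Agilent mouse array with 30153 gene names. All 39 names were found on the array, with 52 probes in all. The study searched for markers of biphenotypic hepatocytes, cells of chronically injured liver that carry hepatocyte and cholangiocyte features. RNA of 2 samples was compared, 1 array each. The MH sample held mature hepatocytes (MHs) isolated from normal liver, and the Sox9+EpCAM- sample held hepatocytes sorted from livers injured by a DDC diet, which causes chronic damage around the bile ducts. According to the study's methods, both livers came from Sox9-EGFP mice, in which GFP marks cells that express Sox9, so the MH donors carried the reporter too. The MHs were collected by low-speed centrifugation and a Percoll gradient, whereas the Sox9+EpCAM- hepatocytes were collected by FACS as GFP+EpCAM- cells, so disease state and isolation method cannot be told apart. Both samples are labelled male, although, as given below, Xist was well above background only in MHs and Y-linked genes only in Sox9+EpCAM- hepatocytes. A difference in sex between the arrays therefore cannot be told apart from disease state and isolation method either. Age, the time on the diet for the arrays and the number of mice are not given in the sources used here. With 1 array per group there is no replicate, hence no SD and no test, and a 4-fold difference served as the rule of size.

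The liver is the main site of amino acid breakdown. Transaminases move the amino group to a keto acid, and the carbon skeletons then pass through dehydrogenases, dioxygenases and hydrolases of the cytosol and the mitochondria to products that enter the citric acid cycle, gluconeogenesis or ketone body synthesis. In the methionine cycle, methionine is activated to S-adenosylmethionine, the methyl donor of the cell, which becomes homocysteine after the methyl group has been used. Homocysteine is either methylated back to methionine or sent through transsulfuration to cysteine. Enzymes such as tyrosine aminotransferase and tryptophan dioxygenase appear late in liver development and are widely used as marks of a mature hepatocyte.

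Most of the 39 enzymes were lower in Sox9+EpCAM- hepatocytes than in MHs, but to very unequal degrees. Of the 39 genes, 10 were at least 4-fold lower (25.6%), against 5.57% of the 23417 genes measured on at least 1 array, and 0 were at least 4-fold higher, against 5.59% of all genes. At 2-fold, 19 of the 39 were lower (48.7%) and 0 higher, beside 16.7% of all genes lower and 14.2% higher. At 10-fold, Oat and Ivd remained, 2 of 39, beside 1.47% of all genes. Ivd (10.2-fold) and Uroc1 (9.95-fold, not counted) lay on either side of that line. The 10 genes past 4-fold were Oat, Ivd, Uroc1, Afmid, Got1, Tat, Prodh, Dbt, Agxt and Hgd. Of the rest, 6 lay above 0, led by Mat2a, with Bcat2 among them only as a lower bound. The log2 difference, taken after each intensity was set relative to the 75th percentile of its array, had a median of -0.94 over the 39 genes, and of -1.02 over the 38 that were well above background on both arrays, beside -0.19 over the 19232 such genes of the whole array. It ranged from -4.14 for Oat to 0.97 for Mat2a.

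**Figure D1:**
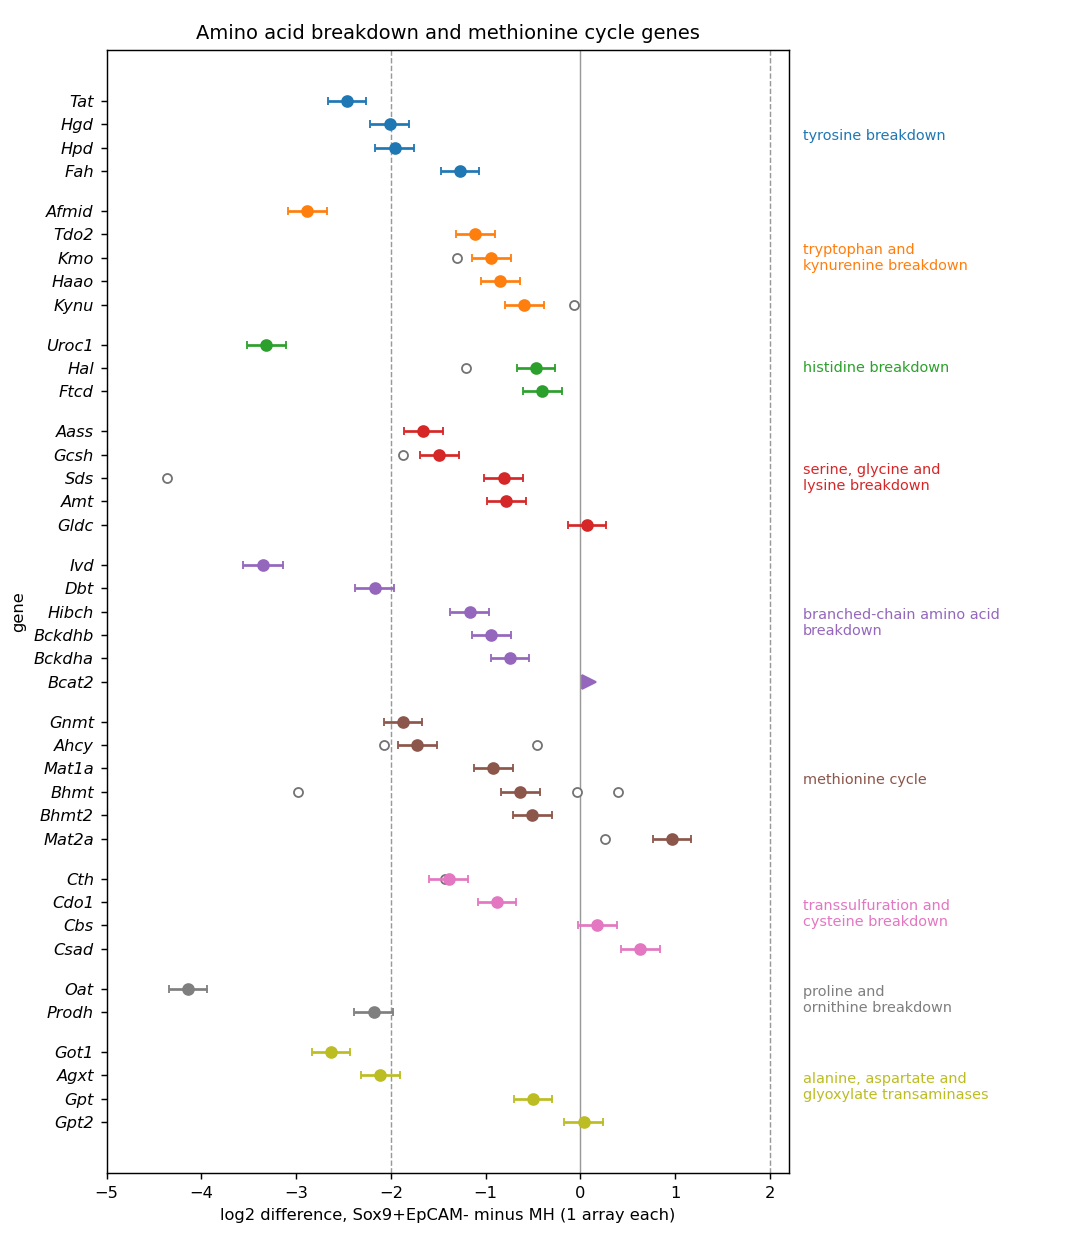
Log2 difference (Sox9+EpCAM- minus MH, 1 array each) of the 39 genes, grouped by pathway. Filled points are the brightest probe of a gene with the scanner software's own error of the difference (0.20 to 0.21), which covers the spot only, open points are its other measured probes, the triangle marks a lower bound (Bcat2) and the dashed lines mark 4-fold; Oat stands lowest at -4.14 and Mat2a highest at 0.97.

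These values are read against the levels of the arrays as a whole. The 75th percentile of the spot intensity was 741 in MHs and 1110 in Sox9+EpCAM- hepatocytes, so that 0.58 is subtracted from the log2 ratio of the intensities of a gene, and 10 of the 39 genes had the higher intensity on the Sox9+EpCAM- array. The genes are bright, and bright genes as a class lay below 0. Among the 1932 genes whose mean level over both arrays reached the median of the 38 measured enzymes, the median log2 difference was -0.43, and 1.76% were at least 4-fold lower and 0.518% at least 4-fold higher. The 19 enzymes in that brighter class had a median of -1.11, and 4 of them (21.1%) were at least 4-fold lower. The 20 dimmer enzymes had a median of -0.94 with 6 past 4-fold. A total of 10 hepatocyte marker genes, among them Alb, Apoa1 and Hnf4a, were well above background on both arrays, with a median of -0.80, a range from -1.73 to -0.22 and 0 past 4-fold. Alb, which encodes albumin, had intensities of 207000 and 170000, a log2 difference of -0.87, and 23 of the 39 enzymes lay below it.

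**Figure D2:**
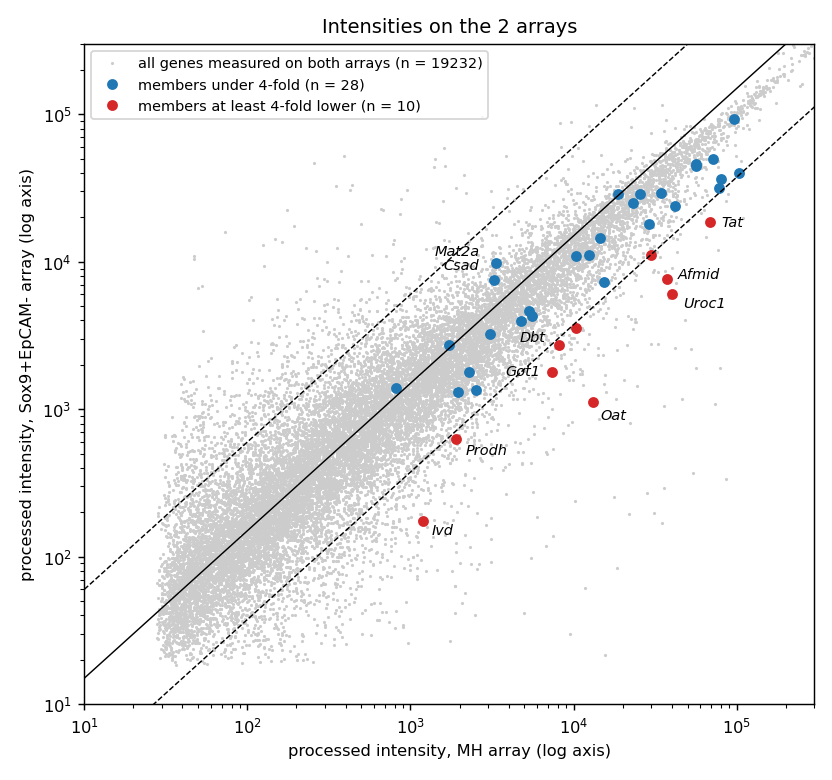
Processed intensity of each gene on the MH array (x, log axis) against the Sox9+EpCAM- array (y, log axis), in arbitrary fluorescence units. Grey points are the 19232 genes measured on both arrays, coloured points 38 of the 39 enzymes, the solid line marks equal level after scaling and the dashed lines 4-fold; the 10 red genes lie at or under the lower dashed line, and none lies above the upper one.

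Markers of other cell types and of sex differed between the arrays too, and their part in the differences was not tested. Of 10 leukocyte markers, 6 were at least 4-fold lower and 1 at least 4-fold higher in Sox9+EpCAM- hepatocytes. Their summed intensity was 19591 in MHs and 3962 in Sox9+EpCAM- hepatocytes, in which C1qc was not well above background. All 7 endothelial markers measured were lower, 4 of them at least 4-fold. Of 8 mesenchymal markers measured, 4 were at least 4-fold higher and 2 at least 4-fold lower, with summed intensities of 9384 and 54629, and Pdgfrb was not well above background on either array. Of 10 cholangiocyte markers, 3 (Spp1, Hes1 and Epcam, the last of these the antigen used to exclude cells in the sort) were at least 4-fold higher, with summed intensities of 1893 and 55341, of which Spp1 alone gave 258 and 47000. Of the other cholangiocyte markers, Cftr and Grhl2 were at least 2-fold lower, and Sox9 itself was not well above background in MHs. Of 5 erythroid markers, 3 were well above background on each array, and 2 of these, Hba-a1 (-3.95) and Alas2 (-2.10), were at least 4-fold lower, with summed intensities of 2892 and 649. Xist was well above background only in MHs, and the Y-linked genes Ddx3y, Kdm5d, Eif2s3y and Uty only in Sox9+EpCAM- hepatocytes, although both samples are labelled male. Any difference in sex is thus confounded with disease state and isolation method. In bulk RNA, fewer cells of a type and less RNA per cell cannot be told apart.

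The regions just upstream of 8 of these genes show how different their starts are. The RefSeq promoter table (GRCm38.p6) held 32 of the 39 genes, and the 250 bases before each start were searched on both strands. The last 120 bases are printed 5′ to 3′ for the 6 genes with the lowest differences, for Hgd, the tyrosine pathway gene nearest to the 4-fold line, and for Mat2a, the highest of all. Capitals mark the letters the CCAAT box (or its reverse complement), the GC box with the letters GGGCGG, the TATA box with the letters TATAAA and an element of the C/EBP type with the letters TTGCNNAA.
Oat (chr7:132576399-132576518, minus strand): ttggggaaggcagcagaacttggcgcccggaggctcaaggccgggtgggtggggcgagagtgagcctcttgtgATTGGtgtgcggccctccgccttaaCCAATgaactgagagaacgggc
Ivd (chr2:118861874-118861993, plus strand): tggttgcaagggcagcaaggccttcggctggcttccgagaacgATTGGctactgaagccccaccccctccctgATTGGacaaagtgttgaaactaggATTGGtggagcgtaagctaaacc
Uroc1 (chr6:90333169-90333288, plus strand): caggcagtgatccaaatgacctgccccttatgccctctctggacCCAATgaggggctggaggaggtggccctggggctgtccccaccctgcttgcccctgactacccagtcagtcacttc
Afmid (chr11:117825799-117825918, plus strand): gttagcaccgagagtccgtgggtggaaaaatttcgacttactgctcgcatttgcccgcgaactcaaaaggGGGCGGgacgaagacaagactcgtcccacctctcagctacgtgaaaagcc
Got1 (chr19:43524606-43524725, minus strand): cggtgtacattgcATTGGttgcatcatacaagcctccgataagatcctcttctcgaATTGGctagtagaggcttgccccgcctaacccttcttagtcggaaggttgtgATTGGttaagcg
Tat (chr8:109990316-109990435, plus strand): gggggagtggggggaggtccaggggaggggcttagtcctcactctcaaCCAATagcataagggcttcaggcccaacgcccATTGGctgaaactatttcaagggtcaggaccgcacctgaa
Hgd (chr16:37580033-37580152, plus strand): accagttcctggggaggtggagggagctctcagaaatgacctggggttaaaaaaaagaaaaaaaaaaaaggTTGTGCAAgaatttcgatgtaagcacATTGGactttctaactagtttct
Mat2a (chr6:72439557-72439676, minus strand): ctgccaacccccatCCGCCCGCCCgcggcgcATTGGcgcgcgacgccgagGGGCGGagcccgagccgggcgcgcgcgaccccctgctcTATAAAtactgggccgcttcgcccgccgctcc

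All of these windows except that of Afmid hold CCAAT on at least 1 strand. Counted from the start, the letters begin at -47 and -22 in Oat, at -77, -47 and -23 in Ivd, at -107, -64 and -12 in Got1 and at -72 and -40 in Tat. Over all 250 bases, CCAAT was present in 19 of the 32 genes (59.4%) and in 6 of the 9 of them that were at least 4-fold lower, beside 39.5% of 17492 protein-coding genes. The GC box was present in 14 of the 32 (43.8%; protein-coding genes 45.8%) and in 1 of those 9, Afmid. The TATA box was present in 5 (15.6%; protein-coding genes 13.7%), namely Ftcd, Hal, Hgd, Mat2a and Tdo2. The letters TTGCNNAA were found in 3 genes (9.38%; protein-coding genes 10.5%), among them Hgd at -49. Other letters searched were GTTAAT (part of an HNF1 element), found in 3 genes, TGTTCT (part of a glucocorticoid element), found in 3, and CAAAGTCCA (an HNF4 element), found in 0, against 6.86%, 15.8% and 0.457% of protein-coding genes and the absence of the last says only that these letters are not in these windows. Motifs of different kinds may overlap in this count, and a match is a description of the letters and not of a bound site. CpG dinucleotides numbered 0 in the 250 bases of Uroc1, 1 in those of Hgd and 3 in those of Tat, but 14 in those of Oat and 29 in those of Mat2a, with a median of 7.5 over the 32 genes and 11 over protein-coding genes.

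Proline and ornithine breakdown had the lowest levels relative to MHs, although it holds only 2 of the genes, which were both past 4-fold. Oat encodes ornithine aminotransferase, the mitochondrial enzyme that turns ornithine into glutamate semialdehyde. Its probe (mm9, chr7:139749726-139749785) gave 13200 in MHs and 1120 in Sox9+EpCAM- hepatocytes, so that Oat was 17.7-fold lower, a log2 difference of -4.14. Prodh, proline dehydrogenase, feeds proline into the same intermediate. Its intensities were 1910 and 631, a log2 difference of -2.18.

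All 4 genes of tyrosine breakdown were at least 2-fold lower, and 2 passed 4-fold. Tat, the aminotransferase that starts the pathway, had intensities of 68800 in MHs and 18700 in Sox9+EpCAM- hepatocytes and was 5.51-fold lower (log2 difference -2.46). Hpd, the dioxygenase that makes homogentisate in the next step, had intensities of 103000 and 39700, a log2 difference of -1.96. Hgd, which opens the ring of homogentisate, had intensities of 29900 and 11100 with a log2 difference of -2.01. Hpd and Hgd thus lie on different sides of the 4-fold line, with 3.89-fold and 4.04-fold, though their log2 differences are closer to each other than the software error. Fah, the last enzyme of the pathway, which splits fumarylacetoacetate and is mutated in hereditary tyrosinaemia, had intensities of 29000 and 18000 and the smallest difference of the 4, with -1.27.

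In tryptophan breakdown, all 5 genes lay below 0 and 1 passed 4-fold, although Kynu (0.27) and Haao (0.02) lay above 0 under scaling to Alb. Tdo2, the heme dioxygenase that commits tryptophan to the kynurenine route, had intensities of 72100 and 50100, a log2 difference of -1.11. Afmid, the formamidase that acts on its product, stood apart from the rest, with 37400 and 7600, 7.37-fold lower (-2.88). Kmo, the mitochondrial hydroxylase of kynurenine, had intensities of 5530 and 4320, a log2 difference of -0.94. Kynu and Haao act further down, on the way to the NAD precursor quinolinate. The brightest probe of Kynu gave intensities of 14500 and 14400, a log2 difference of -0.59, and Haao gave 4740 and 3950, a difference of -0.85. The difference of Afmid thus lay below those of the listed enzymes before and after it in the route.

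Histidine breakdown was split in the same manner, with 1 of 3 genes past 4-fold. Hal, histidine ammonia-lyase, removes the amino group in the initial step, and its brightest probe had intensities of 23100 and 25000, a log2 difference of -0.47. Uroc1, urocanase, acts on the product of Hal. It had intensities of 40400 in MHs and 6080 in Sox9+EpCAM- hepatocytes, 9.95-fold lower, with a log2 difference of -3.32. Ftcd, which passes the formimino group of the last intermediate to tetrahydrofolate, had intensities of 25400 and 28800, a log2 difference of -0.40.

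Among the 6 genes of branched-chain amino acid breakdown, 2 passed 4-fold. Bcat2, the mitochondrial transaminase of the pathway, which is known to be scarce in hepatocytes, gave 15.2 in MHs, not well above background, and 44.2 in Sox9+EpCAM- hepatocytes, so that it was higher by at least 1.06-fold. This bound gave no rise with normexp, quantile normalization or the deposited table. The branched-chain keto acid dehydrogenase is built from 3 kinds of subunit whose genes are listed, and these differed. Bckdha and Bckdhb, the subunits of its decarboxylase, had intensities of 12500 and 11200 for Bckdha (log2 difference -0.74) and of 2290 and 1790 for Bckdhb (-0.94). Dbt, the transacylase core of the complex, had intensities of 8170 and 2720 and was 4.50-fold lower (-2.17). Ivd, isovaleryl-CoA dehydrogenase of the leucine branch, had 1190 and 175, 10.2-fold lower (-3.35), which was the lowest of the group. Hibch, a hydrolase of the valine branch, had 1950 and 1300, a log2 difference of -1.17.

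The transaminases of alanine, aspartate and glyoxylate were uneven, with 2 of 4 past 4-fold. Got1, the cytosolic aspartate aminotransferase, had intensities of 7410 in MHs and 1790 in Sox9+EpCAM- hepatocytes, 6.20-fold lower (log2 difference -2.63). Agxt, which detoxifies glyoxylate and whose loss causes primary hyperoxaluria, had 10300 and 3570, 4.32-fold lower (-2.11). The alanine aminotransferases were close to the level of all genes. Gpt, the cytosolic form, had 10300 and 10900, a log2 difference of -0.50, and Gpt2, the mitochondrial form, had 18700 and 28700, a difference of 0.03 that is smaller than the software error.

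None of the 5 genes of serine, glycine and lysine breakdown passed 4-fold when read by the brightest probe. Aass, the bifunctional enzyme that starts lysine breakdown, had intensities of 15300 and 7270, a log2 difference of -1.66. The glycine cleavage system is a mitochondrial complex, and its listed parts were unequal. Gcsh, the carrier of the aminomethyl group, had 2510 and 1340 (-1.49), Amt, the aminomethyltransferase, 5350 and 4660 (-0.78), and Gldc, the decarboxylase, 1730 and 2720 (0.07). Sds, serine dehydratase, had 34300 and 29300 with its brightest probe, a log2 difference of -0.81, which depends on the probe as given further on.

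In the methionine cycle, 0 of 6 genes passed 4-fold when read by the brightest probe, with a median of -0.78 and a range from -1.87 to 0.97. Mat1a and Mat2a encode the catalytic subunits of methionine adenosyltransferase, Mat1a that of adult liver and Mat2a that of fetal liver and most other tissues. Mat1a had intensities of 56000 and 44400, a log2 difference of -0.92. Mat2a had 3350 and 9810, 1.95-fold higher, a log2 difference of 0.97, and its other probe had 2420 and 4340, a difference of 0.26. The adult and the fetal form thus lay on different sides of 0. Gnmt, which uses surplus S-adenosylmethionine to methylate glycine, had 77500 and 31700 (-1.87). Ahcy, which splits S-adenosylhomocysteine into adenosine and homocysteine, had 80400 and 36500 (-1.72). Bhmt and Bhmt2 methylate homocysteine back to methionine, Bhmt with betaine and Bhmt2 with S-methylmethionine as the methyl donor. Bhmt had 96600 and 93300 (-0.63) and Bhmt2 3090 and 3260 (-0.51). The values of Bhmt and Ahcy depend on the probe, from -2.98 to 0.40 for Bhmt and from -2.08 to -0.46 for Ahcy. The -0.46 of Ahcy came from a dim probe to another transcript, and its probes to the RefSeq transcript gave -2.08 and -1.72. With the lowest probe of each gene, Bhmt and Ahcy both passed 4-fold and the median of the group was -1.40. By the brightest probes, scaling to Alb put the median at 0.09.

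In transsulfuration and cysteine breakdown, 0 of 4 genes passed 4-fold and 2 lay above 0. Cbs, which joins homocysteine and serine, had intensities of 820 and 1390, a log2 difference of 0.18. Cth, the lyase of the next step that releases cysteine, had 41800 and 23900, a difference of -1.39. Cdo1, the dioxygenase that oxidises cysteine, had 56500 and 46000 (-0.88), and Csad, the decarboxylase on the route from there to taurine, had 3260 and 7580, 1.55-fold higher (0.63).

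Compartment and cofactor were not used to choose the genes, and neither separated the genes past 4-fold from the rest. Of 24 cytosolic enzymes, 5 were at least 4-fold lower, with a median of -0.90, and of 14 mitochondrial enzymes 4 were, with a median of -1.05. Agxt, which can be mitochondrial or peroxisomal, was counted in neither class and was also past 4-fold (-2.11). Of the 13 enzymes that use pyridoxal phosphate, the vitamin B6 cofactor of transaminases, 4 (Oat, Got1, Tat and Agxt) were at least 4-fold lower, 8 lay below 0 and 5 above, with a median of -0.59. All 5 iron or heme dioxygenases (Tdo2, Hpd, Hgd, Haao and Cdo1) lay below 0, with a median of -1.11 and 1 past 4-fold, but under scaling to Alb Haao lay at 0.02 and Cdo1 at -0.01.

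Other enzymes of the same pathways, 53 genes on the array beside the 39, lay mostly below 0 as well. Of the 51 that were measured, 7 (13.7%) were at least 4-fold lower, 0 at least 4-fold higher and 47 below 0, with a median of -1.08. Suox, sulfite oxidase, the last step of sulfur amino acid breakdown, had intensities of 1000 and 88.4, a log2 difference of -4.08. Ido2, a dioxygenase of tryptophan, had 8820 and 1960 (-2.75). Mccc2, the enzyme subunit that acts after Ivd on leucine, had 524 and 153 (-2.36). Acadsb and Hibadh, of isoleucine and valine breakdown, had differences of -2.23 and -2.07, and Prodh2, hydroxyproline dehydrogenase, of -2.32. On the other side, Sdsl, a serine dehydratase-like gene, had 395 and 1720 (1.54). Mtr, the folate-dependent methionine synthase, had 8430 and 13100, a difference of 0.05. Aadat and Mtrr were not well above background on either array.

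**Figure D3:**
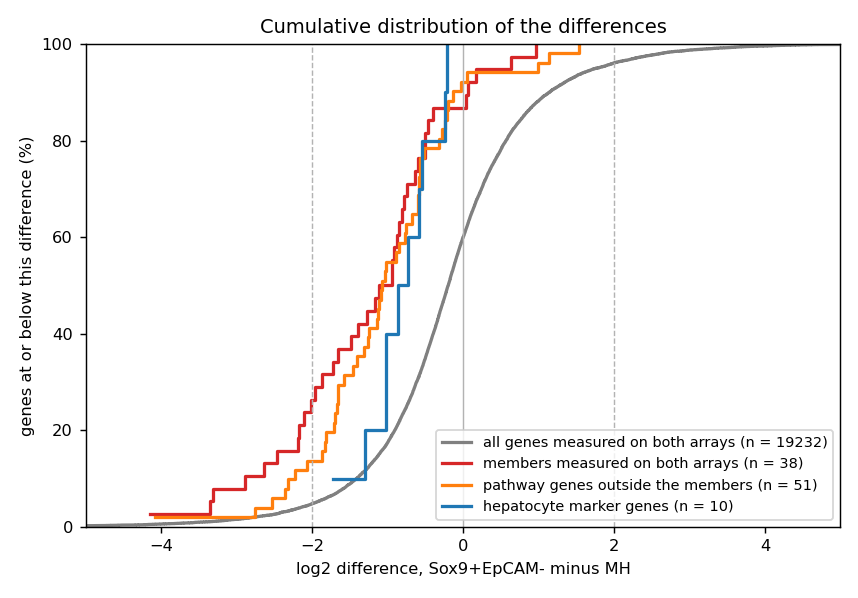
Cumulative share of genes (y, percent) at or below a log2 difference (x, Sox9+EpCAM- minus MH) for all genes measured on both arrays (grey), the 38 measured enzymes (red), the 51 other pathway genes (orange) and 10 hepatocyte markers (blue). The enzymes, other pathway genes and markers reach their middle near -1.02, -1.08 and -0.80, left of all genes at -0.19, and the enzymes and other pathway genes reach past -4 whereas the markers end at -1.73.

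Of the 39 genes, 30 had 1 probe, among them every gene past 4-fold by the brightest probe, and 9 had several. The differences of the genes past 4-fold thus rest on 1 probe each and could not be compared between probes. For Sds and Bhmt the most upstream and the most downstream probe differed by more than 4-fold from each other, as in 12.3% of the 3926 genes with several measured probes. No probe of the 39 genes had 20 bases in a row in common with the probe of a different gene. The first 30 of the 60 bases of the probes are shown because the value of these genes turns on them; the brightest probe of Sds and of Bhmt, designed to the RefSeq transcript, is compared with the probe designed to another, Ensembl transcript.
Sds, RefSeq probe: gggcgcagaccctgaagctgttttacgaac
Sds, Ensembl probe: tttctttatcattatgggtatgaaagagga
Bhmt, RefSeq probe: actactgagcagcagctgagagagctcttt
Bhmt, Ensembl probe: tatctacttaactttccagatctttttcca

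The Sds probe to the Ensembl transcript (mm9, chr5:120928999-120929058) lies 4106 bases upstream of the RefSeq probe (chr5:120933105-120933164). It had intensities of 6910 in MHs and 503 in Sox9+EpCAM- hepatocytes, a log2 difference of -4.36, where the RefSeq probe gave -0.81. With the median of both probes the log2 difference of Sds was -2.59, and it would count among the genes past 4-fold. The Bhmt probe to the Ensembl transcript (chr13:94395097-94395156) had 13500 and 2570, a difference of -2.98. The other Bhmt probes, all 3 near the end of the gene, gave -0.63, -0.03 and 0.40, so that Bhmt had no settled sign. The Ahcy probes to the RefSeq transcript gave -2.08 upstream (72400 and 25700) and -1.72 at the brightest probe. A much dimmer Ahcy probe further downstream, designed to another transcript, had 838 and 913 and gave -0.46. Along the gene, the most upstream probe was the lower in 5 of the 9 genes and the higher in 4, beside 51.1% lower over all 3926 genes. Kmo had -1.30 and -0.94, Kynu -0.59 and -0.07, and Hal -0.47 and -1.20. Cth had -1.39 and -1.43, and Gcsh -1.49 and -1.88, so that the probes of Cth were within the software error of each other.

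**Figure D4:**
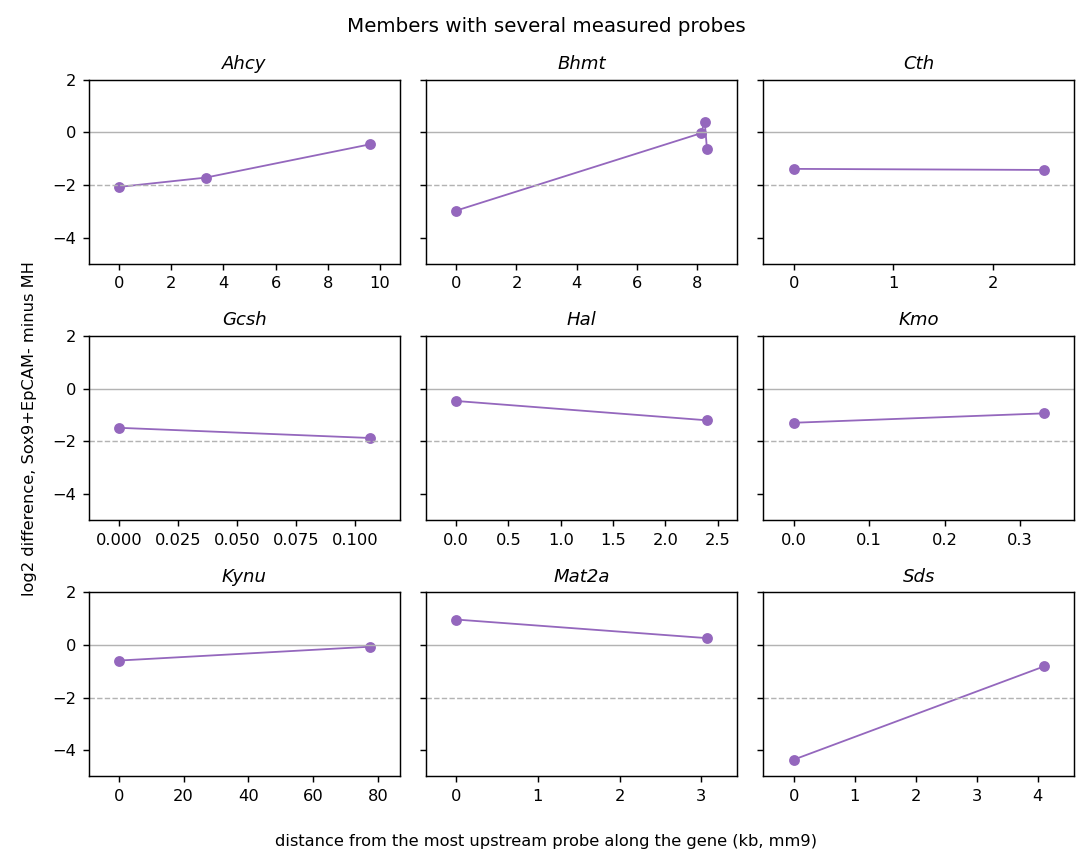
Log2 difference (y, Sox9+EpCAM- minus MH) of each measured probe of the 9 enzymes with several probes, by distance from the most upstream probe along the gene (x, kb, mm9). The dashed line marks 4-fold lower; Sds, Bhmt and Ahcy span it, with -4.36 and -0.81 for the probes of Sds, while the probes of Cth nearly coincide.

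How the 10 genes are counted depends on the reference level. When the arrays were set equal at Alb in place of the 75th percentile, which moves the median of all genes by 0.87, Oat, Ivd, Uroc1 and Afmid were the 4 genes past 4-fold, 2.32% of all genes were, and 16 of the 39 lay above 0. Beside the 6 that did so before, these were Sds, Hal, Ftcd, Kynu, Haao, Amt, Bckdha, Bhmt, Bhmt2 and Gpt. Setting the arrays equal at Gapdh, by 0.27, left 6 genes, with 4.3% of all genes past 4-fold. Quantile normalization also left 6, whereas the share of all genes was 6.04%. A loess curve fitted on the mean level, added after the data were seen, removes the shift of bright genes (-0.36 at the median of the 39); it left 7 genes past 4-fold, without Agxt, Dbt and Hgd, beside 4.19% of all genes, and a median of -0.65. Oat, Ivd, Uroc1 and Afmid stayed at least 4-fold lower under every one of these 4 alternatives. Under scaling to Alb, Afmid lay at -2.01, closer to the 4-fold line than the software error.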

How the data were processed

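RNA was labelled with Cy3 by a service provider and hybridised to 1 array per group. The authors deposited, per the file headers, the spot intensity of Feature Extraction 10.7.3.1 (protocol GE1_107_Sep09), background-subtracted and not normalized between arrays, with background flags and probe coordinates on mm9. The deposited table of ratio values was found to be each intensity divided by the median of its array (96.5 and 164), and served as an alternative. Leaving out controls, the MH array had 27523 and the Sox9+EpCAM- array 32158 of 43020 spots well above background, and the lowest such signals, 27.8 and 18.4, limit what could be measured. For probes printed at least 8 times, the median SD between spots was 0.08 on the log2 scale on the MH array. No spot was saturated.

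From the deposited intensities, log2 values minus the 75th percentile of each array were computed, outlier spots on either array were dropped, and spots of a probe were averaged (39390 probes). Each gene was read from its brightest probe, by the mean of both arrays. Where a probe was not well above background on 1 array, a bound was used there: the lowest signal that was well above background, or the probe's own where that was higher. All 39 genes are named; of other pathway genes those past 4-fold, and Sdsl and Mtr after their values were seen. Some genes that this rule names are not reported here. The genes and lists were chosen with earlier results of these data known. The alternatives were normexp (limma 3.58.1 in R 4.3.3, offset 50), other scalings, other choices of probe, outlier spots kept, no bound, other thresholds, and, after the data were seen, the loess curve (statsmodels 0.14.6, span 0.3). The split by brightness was also made after the data were seen. Python 3.11.15, numpy 2.4.6, pandas 2.3.3 and matplotlib 3.10.9 were used. The procedure was tested on simulated data for this comparison (30167 genes, 200 changed, noise of 0.1 on the log2 scale), where all 100 changed genes measured on both arrays came back within 1.5-fold, 87 of 112 genes changed 8- or 16-fold and measured on an array passed the 4-fold rule, and no unchanged gene did (0). The simulated array was the MH array with this noise, without a scaling difference, a trend with brightness, disagreement between probes or variation between animals. An unchanged gene could hardly reach 4-fold at this noise, so the 0 does not bear on false calls in the real comparison.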

Additional observations from a re-analysis of the deposited data

How the results depend on the processing

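The count of 10 genes at least 4-fold lower became 6 under scaling to Gapdh (4.3% of all genes), 4 under scaling to Alb (2.32%), 6 under quantile normalization (6.04%), 19 at a 2-fold and 2 at a 10-fold threshold. Of these 2, Ivd fell short of 10-fold with normexp (-2.85) and under scaling to Gapdh (-3.08). Under scaling to Alb both fell short, with -3.27 for Oat and -2.48 for Ivd. Both stayed past 10-fold under quantile normalization (-3.94 and -3.38) and in the deposited table (-4.32 and -3.53). It was 9 with normexp (2.82% of all genes at least 4-fold lower, beside 5.57% before), 12 with the deposited table (6.67%), 11 with the median of all probes (5.22%), 13 with the lowest probe (6.88%), 10 with the highest (4.94%) and 7 with the loess curve (4.19%). Each of the 10 genes has only 1 probe, so the choice of probe could add genes to the count but could not remove any. The median of the 39 genes, -0.94, became -0.0722 under scaling to Alb. Over genes measured on both arrays the median of the enzymes lay -0.83 from that of all genes, a distance that a pure rescaling leaves unchanged by arithmetic. With all 39 genes this distance was -0.74, and it was -0.54 under quantile normalization, -0.64 with normexp and -0.66 with the loess curve. With other choices of probe it was larger, from -0.89 to -0.99. No alternative put any of the 39 genes at least 4-fold higher. Normexp lost Hgd, quantile normalization lost Agxt, Dbt, Hgd and Tat, the deposited table added Gnmt and Hpd, and the lowest probe added Ahcy, Bhmt and Sds. Ftcd lay above 0 under quantile normalization and the loess curve, Bhmt with the highest probe, and Gldc and Gpt2 lay below 0 in the deposited table. The bound of Bcat2 was 0 with normexp, quantile normalization and the deposited table. No paired analysis was possible because there is only 1 array in each group, and for the same reason no replicate could be left out and no slide effect fitted. Signals under 27.8 in MHs or 18.4 in Sox9+EpCAM- hepatocytes could not be told from background, which touches Bcat2.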
